A study of Macaca mulatta with 27 samples.

Results

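ATF4 and 9 genes known to respond to it or to amino acid shortage were followed in rhesus PSCs. They are ATF4, ASNS, PSAT1, PHGDH, TRIB3, CHAC1, DDIT3, DDIT4, SESN2, and VLDLR, taken by symbol from the count tables, where they are 10 of 17967 genes. All 10 were found and all 10 were tested in every comparison. RNA was sequenced from 27 libraries, 6 of primed cells and 3 of cells placed in each of 7 media meant to bring PSCs from the primed to the naive state. All groups came from LyonES-tGFP-(S3), 1 clonal embryonic stem cell line that expresses tauGFP from the CAG promoter and carries a lentiviral STAT3-ERT2, a STAT3 that tamoxifen activates. The primed cells therefore carry the transgenes too, and nothing in the data speaks to other lines.

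The media are named as in the study. E-NHSM and NHSM-v are versions of the naive human stem cell medium, 4i/L/b combines kinase inhibitors with LIF and bFGF, and t2iLGöY combines titrated MEK and GSK3β inhibitors with LIF, Gö6983, and Y-27632. LCDM (EPS) contains LIF, CHIR99021, dimethindene, and minocycline. TL2i contains tamoxifen, LIF, and MEK and GSK3β inhibitors, and TL-CDK8/19i, called TL-CDK8i in the labels, has an inhibitor of CDK8 and CDK19 in place of the last pair. Only these 2 media contain tamoxifen. The doses and the time spent in each medium are not given in the sources used here. Primed cells were passaged mechanically in clumps and reprogrammed cells as single cells with trypsin or TrypLE, so the medium and the way of passaging cannot be told apart in any comparison with primed cells.

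ATF4 is the transcription factor of the integrated stress response. Kinases such as EIF2AK4 (GCN2), which senses uncharged tRNA when amino acids run short, and EIF2AK3 (PERK), which senses misfolded protein in the endoplasmic reticulum, phosphorylate the translation factor eIF2α, and this lowers protein synthesis as a whole while favouring translation of the ATF4 mRNA. ATF4 then induces genes for amino acid synthesis, amino acid uptake, and tRNA charging, and genes that feed back on the response or restrain the growth kinase complex mTORC1. Because ATF4 is controlled largely at translation, the amount of its mRNA is not a measure of the protein, which was not measured in these libraries.

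Total counts ranged from 7111886 to 20760914 per library, with a median of 12201171, and 3 counts correspond to between 0.141 and 0.429 CPM, the unit of level used throughout, in which counts are scaled to a common library size with edgeR's TMM factors. Of 8 pluripotent markers, summed levels were 5738 to 6550 CPM in primed cells, 6788 to 6865 in E-NHSM, 1692 to 2330 in TL-CDK8/19i, and 130 to 603 in the other 5 media. In those 5, POU5F1 means lay between 0.29 CPM (NHSM-v) and 6.44 CPM (TL2i), against 1182 in primed cells. Much of what remained was SOX2 in LCDM (EPS) (329 CPM, primed 271) and LIN28A in TL2i (271 CPM, primed 573). Of these markers NANOG and PRDM14 were at 0 in all NHSM-v libraries and NANOG and TDGF1 in all t2iLGöY libraries, and none was at 0 throughout another group. The sums of 8 fibroblast markers were 1138 to 2419 CPM in primed cells, 454 to 493 in E-NHSM, 8703 to 11237 in TL-CDK8/19i, and between 775 and 15064 in the other media, with LUM and DCN at 0 in primed, E-NHSM, and t2iLGöY cells. Those of 8 neural markers were 2337 to 2651 in primed cells, 1312 to 1463 in E-NHSM, 2071 to 2173 in TL-CDK8/19i, and 2967 to 6804 in the other media, with NEUROG2 at 0 in E-NHSM. Most of the neural sum was NES, at 2430 ± 127 CPM (SD, n = 6) in primed cells. In TL-CDK8/19i, where NES was at 1894 ± 55.1 CPM (SD, n = 3), 3 of 6 neural markers tested were higher than in primed cells and 1 was lower, and the means of TUBB3 (10.3 to 107 CPM) and DCX (2.46 to 27.9 CPM) were higher. Sums of 4 endoderm markers and of 4 trophoblast markers stayed at or under 76.4 CPM in every library except for the trophoblast markers in TL-CDK8/19i (136 to 229 CPM), a sum made up mostly of KRT7 (162 ± 49.7 CPM, SD, n = 3). Markers of other cell types thus moved with the media, and their part in the results was not tested. In bulk RNA, fewer cells of a type and less RNA per cell cannot be told apart.

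Most of the genes were higher than in primed cells in E-NHSM, and in 5 of the other media lower calls outnumbered higher ones. In E-NHSM cells 8 of the 10 were higher and 1 was lower than in primed cells. A gene was called when edgeR's quasi-likelihood test gave an adjusted p below 0.05, and by this rule 11.1% of all genes tested were higher and 15.1% lower. In TL-CDK8/19i cells 5 were higher and 1 was lower, against 22.3% and 23.8% of all genes. The median log2 fold change of the 10 was 1.75 for E-NHSM and 0.83 for TL-CDK8/19i, and that of all genes was 0.02 in both.

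In NHSM-v 2 were higher and 5 lower, with 28% and 30.6% of all genes. In 4i/L/b 1 was higher and 5 were lower, with 26.6% and 29% of all genes. TL2i had 2 higher and 7 lower, with 25.6% and 25.2% of all genes, so its share of lower genes was above the background. The counts were 1 and 6 in t2iLGöY (27.1% and 27.2% of all genes) and 1 and 7 in LCDM (EPS) (28.2% and 28.9%). The median log2 fold changes of the 10 were -0.70, -0.17, -0.80, -0.80, and -0.87 in the order given, and those of all genes lay between -0.02 and 0.07. The higher calls in these 5 media were DDIT4 in 4 of them, SESN2 in 2, and VLDLR in 1. The 7 comparisons share the primed libraries. The plot of levels by library shows how far the groups stand apart for each gene.

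ATF4 mRNA was higher than in primed cells in E-NHSM, lower in 5 media, and close to primed cells in TL-CDK8/19i. Primed libraries held 573 to 794 CPM with a median of 636. The E-NHSM libraries held 1154, 1147, and 1165 CPM, all above every other library. This was a rise of 1.76-fold (log2 fold change 0.81 ± 0.09 SE, adjusted p = 1.91e-06). The lowest libraries were those of NHSM-v at 303, 280, and 299 CPM and of t2iLGöY at 332, 292, and 336 CPM, which overlapped each other and stayed below every primed library. NHSM-v cells had a log2 fold change of -1.18 ± 0.11 (adjusted p = 2.03e-07) and t2iLGöY cells one of -1.01 ± 0.11 (adjusted p = 2e-06). LCDM (EPS) libraries lay between 340 and 378 CPM, 4i/L/b between 475 and 520, and TL2i between 450 and 518, each group below the primed range and with log2 fold changes of -0.87 ± 0.11, -0.43 ± 0.10, and -0.41 ± 0.11 (adjusted p = 7.87e-06, 0.00321, and 0.00593). TL-CDK8/19i libraries held 620, 658, and 695 CPM, inside the primed range, and the difference did not pass the test (-0.05 ± 0.10, adjusted p = 0.752), with a sign that depended on the processing. The primed columns carry the letters J and K, with 3 libraries each. The labels do not explain the letters, 2 primed samples carry a set number in their title that differs from the one in their protocol label, and the letters could not be matched to either. ATF4 levels were higher in the J libraries (674 to 794 CPM) than in the K libraries (573 to 597). The calls for ATF4 were the same with either letter alone.

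ASNS, which makes asparagine from aspartate and glutamine and is a standard readout of ATF4, varied more widely than ATF4 itself. Its primed libraries held 150 to 255 CPM (median 199.6). The E-NHSM libraries held 736, 690, and 730 CPM, a rise of 3.51-fold over primed cells (log2 fold change 1.81 ± 0.11, adjusted p = 9.97e-10). At the other end, t2iLGöY libraries held 46.5, 45.7, and 40.7 CPM and NHSM-v libraries 59.9, 51.6, and 45.8 CPM. These 2 groups overlapped each other. They were lower than primed cells by 4.51-fold in t2iLGöY (-2.17 ± 0.15, adjusted p = 1.18e-08) and 3.95-fold in NHSM-v (-1.98 ± 0.15, adjusted p = 3.19e-08). ASNS was also lower in LCDM (EPS) (-0.85 ± 0.13), TL2i (-0.71 ± 0.13), and 4i/L/b (-0.47 ± 0.13), with adjusted p-values of 9.57e-05, 0.000512, and 0.00685. The 4i/L/b libraries (145 to 156 CPM) overlapped the lowest primed library, and with the J libraries as the only controls the adjusted p was 0.0541. In TL-CDK8/19i the libraries held 234, 253, and 243 CPM, in the upper part of the primed range (0.20 ± 0.12, adjusted p = 0.198). The difference passed with the J libraries as the only controls (0.38, adjusted p = 0.0232) and with all 8 groups in 1 fit (0.25, adjusted p = 0.0357).

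PHGDH and PSAT1 catalyse successive steps in the synthesis of serine from a glycolytic intermediate. Both were highest in E-NHSM, but they parted in TL-CDK8/19i. PSAT1 held 197 to 269 CPM in primed cells (median 219.8). E-NHSM libraries were at 751, 708, and 729 CPM, 3.21-fold above primed cells (1.68 ± 0.09, adjusted p = 1.76e-10). TL-CDK8/19i libraries held 432, 427, and 480 CPM, 1.90-fold above primed cells (0.93 ± 0.10, adjusted p = 3.46e-06), with no overlap with either of these groups. PSAT1 fell in all 5 other media. The decline was largest in NHSM-v, at 72.2, 66.5, and 52.1 CPM (-1.86 ± 0.13, adjusted p = 1.66e-08), and in the other 4 the log2 fold changes lay between -0.92 and -0.59.

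PHGDH held 317 to 407 CPM in primed cells (median 358) and 676, 638, and 634 CPM in E-NHSM (0.85 ± 0.08, adjusted p = 1.95e-07). It was lower in each of the other 6 media. The lowest libraries were those of t2iLGöY, at 127, 108, and 122 CPM (-1.56 ± 0.10, adjusted p = 6.42e-09), followed by NHSM-v at 143, 156, and 128 CPM (-1.36 ± 0.10, adjusted p = 2.21e-08). In 4i/L/b, LCDM (EPS), and TL2i the log2 fold changes were -0.95, -0.91, and -0.59. The smallest change was in TL-CDK8/19i, where libraries of 292, 310, and 333 CPM overlapped the primed range (-0.25 ± 0.09, adjusted p = 0.032). That call was lost with DESeq2 (-0.20, adjusted p = 0.0729), with at least 10 counts required in every library (0.0634), with the J libraries alone, and without any one TL-CDK8/19i library or any one K library (adjusted p = 0.0574 to 0.197).

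TRIB3 encodes a pseudokinase that ATF4 induces and that in turn restrains ATF4. It was a low-level transcript everywhere except in E-NHSM and TL-CDK8/19i. Primed libraries held 6.14 to 11.6 CPM (median 8.54). E-NHSM libraries held 79.9, 60.2, and 60.8 CPM, 7.66-fold more (2.94 ± 0.21, adjusted p = 1.08e-08). TL-CDK8/19i libraries were at 52.1, 59.4, and 56.5 CPM, just under those of E-NHSM and 6.21-fold above primed cells (2.63 ± 0.21, adjusted p = 2.22e-07). Every one of these 6 libraries was above every library of the other groups. In 4i/L/b (8.39 to 12.7 CPM) and NHSM-v (5.53 to 7.51 CPM) the libraries overlapped the primed range, with adjusted p-values of 0.549 and 0.349. TRIB3 was lower in LCDM (EPS) at 1.54, 3.30, and 1.03 CPM (-2.14 ± 0.49, adjusted p = 0.0018) and in TL2i at 4.61, 3.20, and 3.32 CPM (-1.23 ± 0.37, adjusted p = 0.0142). In t2iLGöY the 3 libraries held 24, 0, and 34 counts, or 1.64, 0, and 2.46 CPM (-2.64 ± 0.82, adjusted p = 0.0138), the widest error of the 10 genes in this medium. Leaving out 1 library moved the t2iLGöY value to between -3.36 (without t2iLGöY replicate 3) and -2.05 (without t2iLGöY replicate 2), and the LCDM (EPS) value as far as -2.73 (without LCDM (EPS) replicate 2). The TL2i call was lost without TL2i replicate 2 or 3 (adjusted p = 0.0645 and 0.0639) and the t2iLGöY call with the J libraries as the only controls (0.0526).

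CHAC1 degrades glutathione and is induced through ATF4. Against primed cells it passed the test in E-NHSM alone. Its primed libraries were scattered, from 2.74 to 14.3 CPM (median 6.80). E-NHSM libraries held 67.4, 54.9, and 46.2 CPM (2.86 ± 0.37, adjusted p = 1.26e-05), far above the highest primed library. TL-CDK8/19i libraries, at 16.9, 14.9, and 12.8 CPM, overlapped the top of the primed range and did not pass the test (0.89 ± 0.46, adjusted p = 0.127). They passed with all 8 groups in 1 fit (adjusted p = 0.0334), with the K libraries alone (1.39, adjusted p = 0.00688), and without primed library J1 (0.0483). In the other 5 media the log2 fold changes lay between -1.12 and 0.10 with adjusted p-values of 0.116 or more. The lowest of these, TL2i, held 2.25, 4.08, and 4.31 CPM and passed with all 8 groups in 1 fit (0.0192) and without primed library J3 (0.0488).

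DDIT3 encodes CHOP, a transcription factor tied to cell death under prolonged stress, and its log2 fold changes over the 7 media, from -0.98 to 0.63, covered the narrowest range of the 10 genes. Primed libraries held 7.46 to 12.9 CPM (median 9.20). E-NHSM libraries, at 12.9, 16.8, and 15.2 CPM, had the highest mean of all groups but did not pass the test (0.63 ± 0.27, adjusted p = 0.101). No medium had a higher call. DDIT3 was lower in NHSM-v at 7.44, 3.70, and 3.70 CPM (-0.98 ± 0.39, adjusted p = 0.0416), in TL2i at 5.10, 3.84, and 6.15 CPM (-0.94 ± 0.33, adjusted p = 0.0304), and in LCDM (EPS) at 4.38, 5.75, and 5.63 CPM (-0.87 ± 0.33, adjusted p = 0.0363). These 3 calls sat near the threshold. The one in NHSM-v was lost without NHSM-v replicate 2 or 3 or any primed library but J3 (adjusted p = 0.0502 to 0.152), the one in TL2i without any one TL2i library or K3 (0.0513 to 0.138), and the one in LCDM (EPS) without any one LCDM (EPS) library, J2, K1, or K3 (0.0543 to 0.141). In 4i/L/b, t2iLGöY, and TL-CDK8/19i the log2 fold changes were 0.44, -0.37, and -0.17, none of which passed.

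DDIT4 (REDD1) and SESN2 both encode inhibitors of mTORC1, and both are also known targets of p53. DDIT4 was higher than in primed cells in 6 of the 7 media. Primed libraries held 7.81 to 17.7 CPM (median 10.1). The highest libraries were those of t2iLGöY, at 117, 114, and 134 CPM, 11.1-fold above primed cells (3.47 ± 0.23, adjusted p = 9.26e-09), a medium in which ATF4 and ASNS were low. E-NHSM libraries followed with 114, 81.6, and 104 CPM (3.16 ± 0.23, adjusted p = 9.82e-09) and overlapped those of t2iLGöY. TL-CDK8/19i held 78.6, 78.6, and 75.7 CPM (2.75 ± 0.23) and TL2i 73.4, 52.7, and 62.7 CPM (2.49 ± 0.25), with adjusted p-values of 4.18e-07 and 1.71e-06. LCDM (EPS) at 36.9 to 48.2 CPM and NHSM-v at 29.1 to 40.6 CPM were also above every primed library (1.89 ± 0.26 and 1.55 ± 0.28, adjusted p = 2.69e-05 and 0.00019). Only 4i/L/b, at 18.7, 17.1, and 19.9 CPM, reached into the primed range and did not pass (0.69 ± 0.29, adjusted p = 0.0562). It passed under 10 of the alternatives, including DESeq2 (0.0343) and leaving out J1, J2, or J3 (0.0117 to 0.0495). The primed libraries differed by letter here, with 12.0 to 17.7 CPM for J and 7.81 to 8.22 for K, and with K alone the 4i/L/b value was 1.20 (adjusted p = 0.000336).

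SESN2 was higher in 4 media and not called in the others. Its 6 primed libraries held 16.6 to 31.0 CPM (median 25.6). TL-CDK8/19i libraries, at 134, 148, and 130 CPM, and E-NHSM libraries, at 131, 138, and 116 CPM, overlapped each other and lay far above the highest primed library. The rise was 5.34-fold in TL-CDK8/19i (2.42 ± 0.17, adjusted p = 5.6e-08) and 5.16-fold in E-NHSM (2.37 ± 0.17, adjusted p = 7.59e-09). Smaller rises were measured in TL2i, with 43.6, 42.8, and 49.7 CPM (0.87 ± 0.19, adjusted p = 0.0018), and 4i/L/b, with 41.3, 39.5, and 38.9 CPM (0.64 ± 0.19, adjusted p = 0.0115). In NHSM-v, t2iLGöY, and LCDM (EPS) all libraries lay within 20.4 to 27.7 CPM, inside the primed range, with log2 fold changes of -0.10, -0.06, and -0.14. DDIT4 and SESN2 thus parted in these 3 media, in which DDIT4 rose.

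VLDLR, a lipoprotein receptor that ATF4 can induce, followed another order. It held 95.2 to 113 CPM in primed cells (median 103.7). It was highest in TL-CDK8/19i, with 179, 176, and 191 CPM (0.76 ± 0.09, adjusted p = 1.4e-05), and in NHSM-v, with 172, 206, and 164 CPM (0.78 ± 0.10, adjusted p = 1.06e-05). These 2 groups overlapped each other and stood above all others. It was the only one of the 10 to be lower in E-NHSM, at 83.4, 78.1, and 67.4 CPM (-0.45 ± 0.11, adjusted p = 0.00666), below every primed library, although the call was lost without E-NHSM replicate 3 (-0.36, adjusted p = 0.0668). VLDLR was lower in the other 4 media too, down to 33.3, 40.0, and 33.5 CPM in LCDM (EPS) (-1.54 ± 0.12, adjusted p = 6.81e-08). Libraries of LCDM (EPS), t2iLGöY, TL2i, and 4i/L/b ranged from 33.3 to 61.6 CPM, and neighbours in the order of means overlapped.

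Of the 70 tests against primed cells, 20 were higher, 32 were lower, and 18 did not pass. In single media, 11.1% to 28.2% of all genes were higher and 15.1% to 30.6% lower, so the higher calls were near the upper end of the background and the lower calls above it. ATF4 and ASNS each had 1 higher and 5 lower calls of 7, PSAT1 2 and 5, PHGDH 1 and 6, VLDLR 2 and 5, and TRIB3 2 and 3. CHAC1 had 1 higher call, DDIT3 3 lower, SESN2 4 higher, and DDIT4 6 higher. DDIT4 and SESN2 had no lower call.

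Comparisons between media that share no primed library were made for the 2 media with tamoxifen and the 2 of the NHSM family. TL-CDK8/19i and TL2i both contain LIF and tamoxifen and differ in their inhibitors. Between them, 9 of the 10 genes were higher in TL-CDK8/19i and none was lower, against 31.5% and 33.3% of all genes, with a median of 1.25 against -0.04 for all genes. TRIB3 differed most, at 52.1 to 59.4 CPM in TL-CDK8/19i and 3.20 to 4.61 in TL2i, a 14.6-fold difference (3.86 ± 0.16, adjusted p = 2.67e-10). CHAC1 was 4.13-fold higher (2.05 ± 0.26, adjusted p = 1.13e-05), VLDLR 3.79-fold (1.92 ± 0.15, adjusted p = 9.82e-08), PSAT1 3.54-fold (1.82 ± 0.12, adjusted p = 1.94e-08), and SESN2 2.96-fold (1.57 ± 0.10, adjusted p = 1.57e-08). The libraries of the 2 media did not overlap for any of the 10 genes, DDIT4 included, so the lack of overlap does not set these 5 apart. The share of all genes without overlap was not counted. The differences were smaller for ASNS (0.93 ± 0.08), ATF4 (0.39 ± 0.09), and PHGDH (0.36 ± 0.10), with adjusted p-values of 5e-07, 0.00218, and 0.00557. DDIT3 also passed (0.79 ± 0.28, adjusted p = 0.0247), but not without TL-CDK8/19i replicate 1 (0.145), without TL2i replicate 2 (0.0742), or with library totals alone as the scale. DDIT4, which was high in both, differed by 0.27 ± 0.12 (adjusted p = 0.0566) and passed under 4 alternatives, among them DESeq2 (0.049) and leaving out TL2i replicate 1 (0.42, adjusted p = 0.00706). Cell type markers moved in the same comparison. In TL-CDK8/19i, 7 of 8 pluripotent markers tested were higher and none lower, 6 of 7 neural markers were lower and 1 was higher, and all 4 endoderm markers were lower. Of 8 fibroblast markers 4 were higher and 1 was lower, with a median log2 difference of 0.13 and a sum carried mainly by COL1A1 (7375 against 2407 CPM), and of 3 trophoblast markers tested KRT7 was higher and 2 were lower. The part of these markers in the differences was not tested.

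NHSM-v and E-NHSM stood at opposite ends for most of the genes. In NHSM-v, 9 of the 10 were lower and 1 was higher than in E-NHSM, against 34.8% and 33.4% of all genes, with a median log2 difference of -2.33 against -0.03. ASNS fell 13.8-fold (-3.79 ± 0.09, adjusted p = 4.26e-14), PSAT1 11.6-fold (-3.53 ± 0.10, adjusted p = 2.97e-13), and TRIB3 10.1-fold (-3.33 ± 0.19, adjusted p = 1.25e-09). The differences in CHAC1 (-2.76 ± 0.26), SESN2 (-2.46 ± 0.13), PHGDH (-2.20 ± 0.07), and ATF4 (-1.98 ± 0.05) amounted to 6.75-fold, 5.49-fold, 4.59-fold, and 3.95-fold, with adjusted p-values from 1.17e-13 to 2.69e-07. DDIT3 (-1.61 ± 0.34, adjusted p = 0.00075) and DDIT4 (-1.59 ± 0.16, adjusted p = 5.52e-07) were 3.05-fold and 3.01-fold lower. VLDLR was the exception, 2.36-fold higher in NHSM-v (1.24 ± 0.11, adjusted p = 1.24e-07). These 2 media also differed in their pluripotent markers (130 to 148 CPM in NHSM-v and 6788 to 6865 in E-NHSM) and fibroblast markers (7854 to 8381 and 454 to 493), and all 8 neural markers were higher in NHSM-v (sums of 3345 to 3369 and 1312 to 1463 CPM, median log2 difference 4.22). Their part in the differences was not tested.

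**Figure D1:**
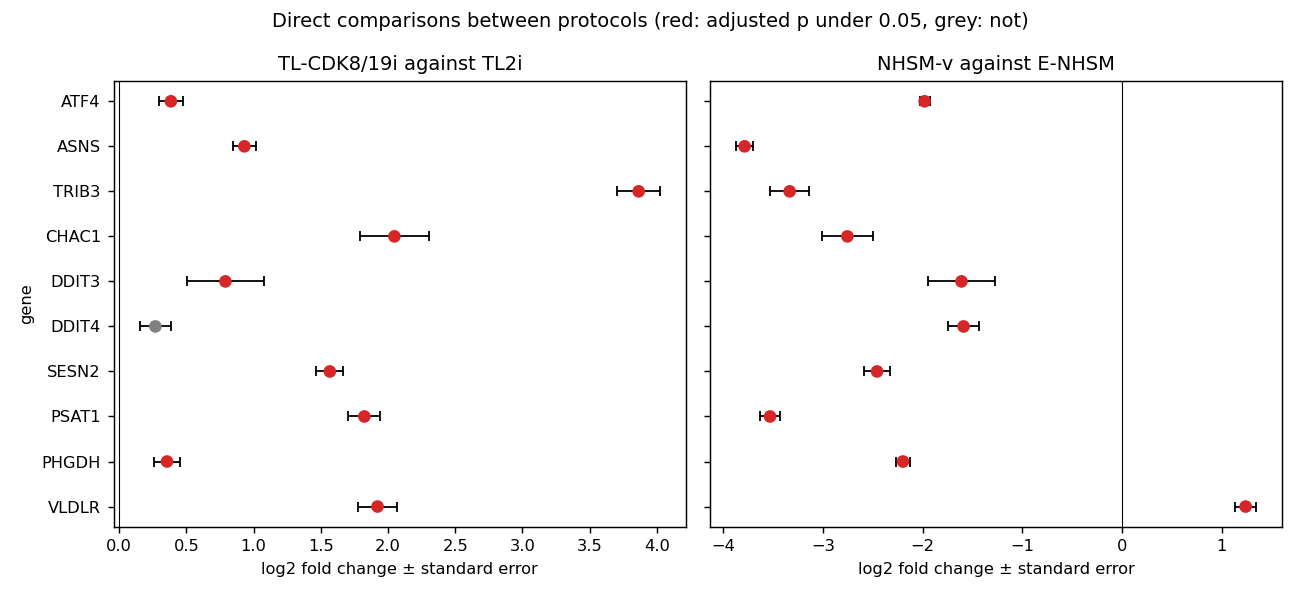
Log2 difference of the 10 genes between TL-CDK8/19i and TL2i and between NHSM-v and E-NHSM. Points are estimates from edgeR with bars of ± 1 SE, filled where the adjusted p was under 0.05. The differences are above 0 for all 10 genes in the former, from 0.27 to 3.86, and below 0 for 9 genes in the latter, where VLDLR is at 1.24.

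Other genes of the response were read from 7 lists, chosen by function and with earlier results of these data known. Their counts stand beside the shares of all genes given above, which for E-NHSM were 11.1% higher and 15.1% lower, for TL-CDK8/19i 22.3% and 23.8%, and between 25.2% and 30.6% in either direction in each of the other 5 media. The aminoacyl-tRNA synthetases, which charge tRNAs with amino acids and many of which are ATF4 targets, moved almost as a block. All 11 found were higher in E-NHSM, with a median log2 fold change of 0.57. In NHSM-v and t2iLGöY 10 of the 11 were lower and none was higher, in 4i/L/b and TL2i 9 were lower and none higher, and in LCDM (EPS) 10 were lower and 1, SARS, was higher (0.50). TL-CDK8/19i was mixed, with 2 higher, AARS and MARS, and 2 lower, EPRS and LARS. EPRS, which charges both glutamate and proline tRNAs, ranged over the 7 media from -1.16 in NHSM-v to 0.42 in E-NHSM, and LARS, for leucine, from -1.04 in t2iLGöY to 0.57 in E-NHSM. All 11 were lower in NHSM-v than in E-NHSM (median -1.45), and 8 were higher in TL-CDK8/19i than in TL2i with none lower.

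Amino acid and one-carbon synthesis genes moved in the same directions with more exceptions. Of 10 found, 5 were higher and none lower in E-NHSM (median 0.59), namely MTHFD2, SHMT2, PYCR1, GPT2, and ALDH1L2. TL-CDK8/19i had 5 higher (MTHFD2, SHMT2, GPT2, ALDH1L2, and ALDH18A1) and 3 lower (CBS, MTHFD1L, and PYCR1), with a median of 0.37. Lower calls were 8 in NHSM-v, 5 in 4i/L/b, 5 in TL2i, 8 in t2iLGöY, and 6 in LCDM (EPS), with 1 higher in NHSM-v, TL2i, and LCDM (EPS) and none in 4i/L/b or t2iLGöY. MTHFD1L, of mitochondrial folate metabolism, fell in 6 media (log2 fold changes of -1.95 to -0.30) and was level in E-NHSM (0.01, adjusted p = 0.956). CBS, which condenses serine with homocysteine, fell in the same 6, by 2.21 on the log2 scale in NHSM-v, and was 0.27 in E-NHSM (adjusted p = 0.101). The higher call in TL2i and LCDM (EPS) was GPT2, an alanine aminotransferase, and that in NHSM-v was ALDH1L2, which had a mean of 1.11 ± 1.71 CPM (SD, n = 6) in primed cells.

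The 8 amino acid transporters moved in both directions. E-NHSM had 5 higher and 1 lower, TL-CDK8/19i had 4 and 1, and the counts were 2 and 5 in NHSM-v, 2 and 4 in 4i/L/b, 3 and 5 in TL2i, 1 and 6 in t2iLGöY, and 1 and 6 in LCDM (EPS). SLC1A4, a transporter of alanine, serine, and cysteine, was higher in all 7 media, from 11.4 ± 1.49 CPM (SD, n = 6) in primed cells to 158 ± 10.8 (n = 3) in TL-CDK8/19i, with log2 fold changes of 1.46 to 3.74. The study chose SLC1A4 for its own gene list on these samples, so its direction is not independent evidence. SLC7A5, the large neutral amino acid transporter, was higher in TL-CDK8/19i (0.36 ± 0.07, adjusted p = 0.000707) and lower in the other 6, down to -2.41 ± 0.07 in LCDM (EPS) (adjusted p = 3.22e-12). The higher calls were SLC1A4, SLC1A5, SLC6A9, SLC7A1, and SLC7A11 in E-NHSM and SLC1A4, SLC6A9, SLC7A5, and SLC7A11 in TL-CDK8/19i. Some of these were not particular to the 2 media. SLC7A11 was higher in 4 media and lower in 3, SLC6A9 higher in 3, and SLC7A1 higher in 2 and lower in 3. SLC7A11 means were 127 CPM in TL2i, 109 in 4i/L/b, 134 in TL-CDK8/19i, 59.8 in E-NHSM, and 33.0 in primed cells. SLC7A5 was the 1 lower call in E-NHSM (-0.59 ± 0.06, adjusted p = 1.46e-06), and SLC38A2 that in TL-CDK8/19i (-0.38).

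Of the genes upstream of ATF4, the sensor kinase of amino acid shortage and its substrate were lower in every medium, E-NHSM included. EIF2AK4 held 188 ± 34.6 CPM (SD, n = 6) in primed cells and between 96.9 and 135 CPM in the group means of the media. It was lower in all 7 (log2 fold changes of -0.95 to -0.53), although its TL-CDK8/19i libraries (128 to 146 CPM) overlapped the primed range (127 to 225 CPM). EIF2S1, which encodes eIF2α and is also in the study's own list, was lower in all 7 too, from -1.34 to -0.59. Both genes were named because they were called in one direction in the most media, so their uniformity is part of how they were chosen. The rest of this list was not uniformly lower. EIF2AK3 (-0.52 to 1.17) and the phosphatase subunit PPP1R15A (0.33 to 1.60) each had 4 higher calls and no lower one. Lower calls numbered 6 for EIF2AK1, 4 for PPP1R15B, and 1 for EIF2AK2, and none of these genes had a higher call. Of the 7 kinases, substrate, and phosphatase subunits, 3 were lower and none higher in E-NHSM (EIF2AK2, EIF2AK4, and EIF2S1), and 4 were lower and 1, EIF2AK3, was higher in TL-CDK8/19i. Lower and higher calls were 4 and 2 in NHSM-v, 3 and 2 in 4i/L/b, 3 and 2 in TL2i, 4 and 1 in t2iLGöY, and 4 and 0 in LCDM (EPS). Where 2 of the 7 genes were higher, that count was close to the share of all genes higher in the same medium. The counts of 3 or 4 lower calls were above the share of all genes lower in each medium, E-NHSM included (15.1%). With only 7 genes in the list, this excess was not tested.

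ER chaperones and genes of ER-associated degradation, many of them targets of ATF6 and XBP1 in the unfolded protein response, were mostly lower in E-NHSM, where ATF4 was higher. Of 12 genes 8 were lower and 2 higher there (XBP1 and HERPUD1), with a median of -0.48. HSPA5 (BiP), the main chaperone of the ER lumen, fell from 1293 ± 163 CPM (SD, n = 6) in primed cells to 499 ± 21.4 (n = 3) in E-NHSM (-1.38 ± 0.10, adjusted p = 5.99e-09). It was lower in all 7 media (-1.52 to -0.37), as was the calcium-binding chaperone CALR (-1.48 to -0.35). TL-CDK8/19i had 4 higher and 4 lower (median 0.27), and LCDM (EPS) had 9 lower and none higher (-1.10). Lower and higher calls were 4 and 3 in NHSM-v, 4 and 1 in 4i/L/b, 4 and 1 in TL2i, and 6 and 2 in t2iLGöY.

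The 7 ATF4-related transcription factors and the 7 secreted and other effectors completed the set. Of the factors, 4 of 6 tested were higher in E-NHSM (ATF3, ATF5, CEBPB, and CEBPG) and 3 of 7 in TL-CDK8/19i (ATF3, JUN, and NUPR1), with none lower in either. NUPR1 held 0 to 7 counts in primed libraries and 25 to 49 in TL-CDK8/19i. Of the 7 comparisons with primed cells, it passed the low-count filter in this 1 alone, where it was high. Its call and its place among the 7 tested thus follow partly from that filter and lend no support. There were 2 higher and 2 lower calls in each of NHSM-v, TL2i, t2iLGöY, and LCDM (EPS), and 4 and 0 in 4i/L/b. Calls of 2 among 6 genes are near the background of these media. ATF3 was higher in 4 media and lower in 1, and did not follow ATF4. Its means were 96.7 CPM in TL2i and 84.8 in 4i/L/b, where ATF4 was lower. They were 104 CPM in TL-CDK8/19i, 47.3 in E-NHSM, and 19.3 in primed cells. CEBPB, a partner of ATF4 on DNA, was higher in E-NHSM (1.06 ± 0.35, adjusted p = 0.0314) and lower in 4 media, down to -2.53 ± 0.74 in LCDM (EPS) (adjusted p = 0.00925), and ATF2 was higher in 5 media (at most 0.75). CEBPB was a low-level transcript, with 28 to 66 counts in primed libraries and 2 to 27 in LCDM (EPS). Of the effectors, 4 of 6 tested were higher and none lower in E-NHSM (EIF4EBP1, JDP2, STC2, and VEGFA, median 1.11), and TL-CDK8/19i had the same counts (EIF4EBP1, GDF15, JDP2, and STC2, median 0.91). Their higher and lower calls were 1 and 1 in NHSM-v and 4i/L/b, 1 and 2 in TL2i, and 1 and 3 in t2iLGöY and LCDM (EPS). Primed libraries held 1 to 289 counts of GDF15 and 13 to 51 of JDP2, so the primed levels of these genes were scattered or low. STC2, a secreted glycoprotein, was higher in E-NHSM (142 ± 14.2 CPM, n = 3, against 28.5 ± 11.2 CPM, n = 6, in primed cells) and in TL-CDK8/19i (69.4 ± 4.23 CPM, n = 3), and lower in the other 5, down to a log2 fold change of -3.77 in LCDM (EPS). VEGFA, the angiogenic factor, was higher in 4 media and lower in 2 (-1.26 to 1.28).

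Likeness between genes was described over the means of the 8 groups, which share libraries, scale, and depth across genes. With ATF4, Pearson's r of mean log2 CPM was 0.972 for ASNS, 0.969 for PHGDH, 0.901 for PSAT1, 0.815 for TRIB3, 0.787 for SESN2, 0.766 for CHAC1, and 0.752 for DDIT3. It was 0.0673 for DDIT4 and 0.181 for VLDLR, whose orders of groups were given above. Among 9913 genes, those most like ATF4 were TMEM14B (0.987), RPL27 (0.985), and GMPR2 (0.985), each above the value of any of the 9 genes named with it. Those most like ASNS were UBA3 (0.979), ATF4 (0.972), and PHGDH (0.969).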

How the data were processed

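Bulk RNA was measured in 27 libraries. The authors made directional mRNA libraries and deposited raw counts per gene symbol for each library, without pooling. The submitters' processing notes name bcl2fastq, cutadapt, HISAT2, and HTSeq without roles or versions, and the genome build and annotation are not given in the sources used here, so no positions or sequences are printed. Reads shared between near-identical genes were not examined. Every column belonged to a group by its name (0 left over), those of primed cells to the group alone. Nothing in the labels says that replicates came from separate cultures, so p-values measure the spread between these libraries, which may be technical.

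With R 4.3.3 and edgeR 4.0.16 (limma 3.58.1), each comparison was fitted on its own groups with TMM scaling, filterByExpr, and the quasi-likelihood test, with Benjamini-Hochberg adjustment over all genes tested and a threshold of 0.05. The standard error was the log2 fold change divided by the root of its F statistic. CPM used TMM over all 27 libraries, and likeness used a prior count of 2 and a mean log2 CPM of at least 3. The fit was tested on simulated data, in which every gene had the same variability setting and changes were placed only in well-counted genes. That test therefore does not bear on the calls of low-count or scattered genes.

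The genes, lists, and comparisons were chosen with earlier results of these data known. All 10 genes are named. From each list at most 2 genes were named, those called in one direction in the most media, ties by the larger mean change, and the 3 genes most like ATF4 and ASNS. Further list genes were named after their values were seen, to complete a count or to show genes of a list that went another way. Of 96 symbols in the function and marker lists, 94 were found (not PSPH and TARS).

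The alternatives were DESeq2 1.42.0, upper-quartile scaling, library totals, no filter, genes with 10 or more counts throughout, a log2 fold change of 1 or more in either direction, all 8 groups in 1 fit, a replicate block, the primed J or K libraries alone, and each library left out.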

Additional observations from a re-analysis of the deposited data

How the results depend on the processing

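Over the 9 comparisons, 1425 of 1539 values of single genes under the alternatives kept their direction and their side of the threshold, 71 lost the call, 21 gained it, and 22 changed sign, all of them values that had not passed. A required log2 fold change of at least 1 lowered the number of the 10 genes called to 0 in 4i/L/b, 3 in TL2i, 3 in LCDM (EPS), 3 in TL-CDK8/19i, and 5 between TL-CDK8/19i and TL2i, by its own construction. The other alternatives kept each count within 1.5 times. With the replicate block, the counts were 9 between TL-CDK8/19i and TL2i and 10 between NHSM-v and E-NHSM, and no call of a single gene changed; libraries of the same number did not deviate together (correlations of -0.237 to -0.0334 and -0.00865 to 0.0164). No block could be fitted against primed cells, whose columns are not tied to samples. The changes of sign concerned CHAC1 with the J libraries alone in NHSM-v (-0.26) and 4i/L/b (-0.26) and with the K libraries alone in t2iLGöY (0.0574), SESN2 in t2iLGöY with library totals (0.0724), and ATF4 in TL-CDK8/19i with DESeq2 (0.0079), at least 10 counts (0.00066), all 8 groups (0.0067), and the K libraries alone (0.13); the cause was not tested. With 1 library left out, log2 fold changes ranged from -0.14 to 0.39 and -0.042 to 0.37 for CHAC1 in NHSM-v and 4i/L/b, -0.24 to 0.0166 and -0.19 to 0.0336 for SESN2 in NHSM-v and t2iLGöY, -0.0745 to 0.0185 for ATF4 and -0.43 to 0.0343 for DDIT3 in TL-CDK8/19i. Library totals in place of TMM moved the median of all genes by over 0.1, to 0.15 in LCDM (EPS), 0.19 in TL2i, and 0.15 in t2iLGöY, and to -0.16 and -0.15 in the comparisons between media. In primed libraries CHAC1 held 22 to 128 counts and TRIB3 43 to 136, the fewest among the 10 genes.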
